A study of Sus scrofa with 4 samples.

Results

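MHC class I presents fragments of proteins made inside the cell to CD8 T cells and NK cells, and the genes for it and for the loading of its peptides were followed in the thymus of IL2RG knockout (KO) and wildtype (WT) pigs. The members are all probes whose RefSeq accession belongs to the class I heavy chains SLA-1, SLA-2 and SLA-3, the light chain B2M, the peptide transporter genes TAP1 and TAP2, the loading protein TAPBP, or the inducible proteasome subunits PSMB8 and PSMB9. Of these 9 genes, 6 had at least 1 such probe, giving 18 of the 43603 probes of the array. SLA-3 had 7 probes, PSMB8 had 3, and B2M, TAP1, TAP2 and PSMB9 had 2 each. SLA-1, SLA-2 and TAPBP had no probe under this rule and were skipped.

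A class I molecule is a heavy chain paired with beta-2 microglobulin and a short peptide. The proteasome cuts proteins into peptides, and under interferon it can exchange its standard catalytic subunits for PSMB8, PSMB9 and PSMB10, which gives the immunoproteasome. TAP1 and TAP2 form the pump that carries peptides into the endoplasmic reticulum, where chaperones hold the heavy chain until a peptide binds. In the thymus, class I on epithelial and other cells selects the thymocytes that become CD8 T cells, while immature thymocytes themselves carry little class I on their surface.

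The KO pigs were Minnesota miniature swine labelled IL2RG+/-, with 1 allele of IL2RG (mIL2RG+/Δ69-368) disrupted by TALENs, and the WT pigs were of the same breed. According to the study's methods the edited donor cells were cloned by nuclear transfer. Most KO pigs of the study lacked a thymus, so the KO arrays hold RNA only of pigs that had a rudimentary one. Each genotype had 2 single-colour Agilent arrays, whose design text speaks of independent experiments. The sources used here give no age for the arrayed pigs and do not name the animal behind each array, so the p values measure the spread between these 4 samples.

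Values are log2 spot signals minus the 75th percentile of their array, called log2 signal below. The test covered the 31959 probes that cleared the background on both KO arrays or on both WT arrays. A probe was called when limma gave it a p, adjusted by Benjamini-Hochberg over all of them, under 0.05 together with a change of 2-fold or more. Between 67.9% and 74.5% of probes were well above background on an array, with the higher shares in KO, and no spot was saturated. KO replicate 1 shared slide 1 with WT replicate 2, and KO replicate 2 shared slide 2 with WT replicate 1. IL2RG itself, read at its brightest probe, had log2 signals of -3.15 and -3.29 in KO against -0.13 and 0.52 in WT, so that the log2 fold change was -3.41 ± 0.27 (SE, n = 2 per group, limma adjusted p = 0.0026). The thymus label was checked against markers. All 12 tested thymocyte genes were called lower in KO, beside 12.6% of all named genes read at their brightest probe. RAG1, an enzyme that rearranges T cell receptor genes, had log2 signals of -2.93 and -4.50 in KO against 3.85 and 4.07 in WT. In bulk tissue, fewer cells of a type and less RNA per cell cannot be told apart.

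Expression of the class I pathway was higher in KO thymus in part of its genes. All 18 member probes were well above background on all 4 arrays, so each was tested, and 11 of the 18 were called higher, beside 34.0% of all tested probes that were called, 21.0% higher and 13.0% lower. None was called lower. The 11 called probes were the 7 of SLA-3, both of TAP1 and both of PSMB9. The 2 B2M probes and 1 of the TAP2 probes were higher at an adjusted p under 0.05 but by less than 2-fold (25.3% of all tested probes were higher at that p at any fold), and the other TAP2 probe and the 3 PSMB8 probes passed neither limit. On all 18 probes both KO arrays lay above both WT arrays, which held for 37.7% of all tested probes. The median log2 fold change of the member probes was 1.32, beside -0.06 over all tested probes. Since 7 of the 18 probes belong to SLA-3, these probe counts and this median lean on that gene. Read at the brightest probe of each gene, 3 of the 6 genes were called, all higher, beside 25.1% of all named genes called higher and 12.6% lower.

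**Figure D1:**
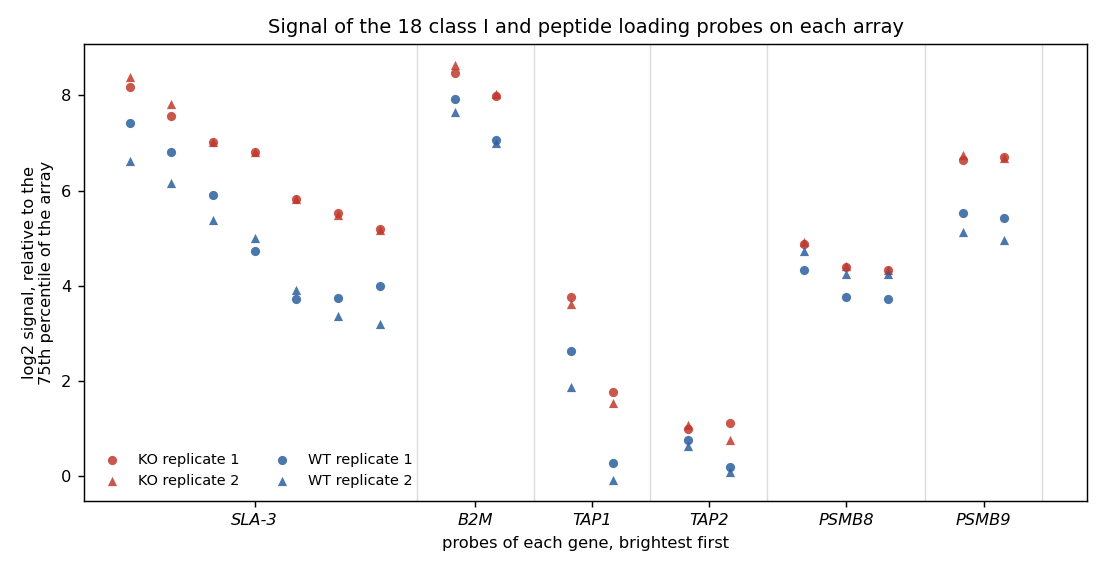
Log2 signal relative to the 75th percentile of the array (y axis) for each of the 18 probes (x axis, grouped by gene, brightest first), with KO in red, WT in blue, circles for replicate 1 and triangles for replicate 2. On every probe both red points lie above both blue points, widely for SLA-3, TAP1 and PSMB9 and narrowly for the first TAP2 probe and for PSMB8.

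SLA-3 encodes a classical class I heavy chain, the chain that holds the peptide. Its brightest probe had log2 signals of 8.19 and 8.38 in KO against 7.42 and 6.62 in WT. The WT arrays lay 0.80 apart on it, further than the KO arrays. Its log2 fold change was 1.27 ± 0.32 (SE, n = 2 per group, limma adjusted p = 0.032). Its call was lost when dim probes were kept in the test (adjusted p = 0.054), without WT replicate 2, which left a log2 fold change of 0.87, without KO replicate 1 (adjusted p = 0.10) and without KO replicate 2 (adjusted p = 0.15). The second brightest probe, at 1.21, lost its call after median scaling (0.95) and without WT replicate 2 (0.89) or either KO array.

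The largest change of SLA-3 was on a dimmer probe, with log2 signals of 5.82 and 5.82 in KO against 3.72 and 3.91 in WT. Its log2 fold change of 2.01 ± 0.16 (SE, n = 2 per group, limma adjusted p = 0.0026) is a 4.02-fold rise. The probes differed among themselves. The 3 brightest probes changed by 1.21 to 1.37 on the log2 scale the next 3 by 1.95 to 2.01 and the dimmest by 1.59. The brightest SLA-3 spot reached 29.9% of the saturation value of the scanner, so none was near the ceiling of the scanner. Why the 3 brightest probes changed least was not tested. WT replicate 1 exceeded WT replicate 2 on 5 of the 7 probes and fell short of it on 2, with gaps of 0.19 to 0.81 in size, while the KO arrays differed by at most 0.26.

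The SLA-3 probes share 1 RefSeq record, and the RefSeq table lists SLA-1 and SLA-7 as other names of that record. Class I heavy chain genes are close copies of each other, so transcripts of a neighbouring gene may bind the same probe, and how far each probe separates them was not tested. The values are therefore those of the probes assigned to SLA-3 and remain uncertain for that gene alone.

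B2M encodes the light chain that every class I heavy chain needs to reach the cell surface. It gave the highest signal of the members, and its brighter probe had log2 signals of 8.46 and 8.64 in KO against 7.93 and 7.65 in WT. That is a log2 fold change of 0.76 ± 0.19 (SE, n = 2 per group, limma adjusted p = 0.031). The second probe read 7.99 and 8.03 in KO against 7.06 and 6.99 in WT, so that the log2 fold change was 0.98 ± 0.15 (SE, n = 2 per group, limma adjusted p = 0.0096). Both differences exceeded the replicate spread, and at 1.70-fold and 1.98-fold neither reached the 2-fold limit. The second probe passed it after quantile normalization, where its log2 fold change was 1.18. After median scaling the brighter probe had a log2 fold change of 0.50 (limma adjusted p = 0.074).

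TAP1 and TAP2 together encode the peptide pump, and they differed in their calls. The brighter TAP1 probe had log2 signals of 3.75 and 3.60 in KO against 2.62 and 1.87 in WT, so that the log2 fold change was 1.44 ± 0.30 (SE, n = 2 per group, limma adjusted p = 0.020). The second TAP1 probe read 1.76 and 1.53 in KO against 0.28 and -0.09 in WT, with a log2 fold change of 1.55 ± 0.21 (SE, n = 2 per group, limma adjusted p = 0.0070). Both TAP1 probes thus rose by 2.70-fold to 2.93-fold.

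The brighter TAP2 probe had log2 signals of 0.99 and 1.06 in KO against 0.75 and 0.63 in WT, with a log2 fold change of 0.34 ± 0.16 (SE, n = 2 per group, limma adjusted p = 0.14). The second read 1.11 and 0.75 in KO against 0.19 and 0.09 in WT, with a log2 fold change of 0.79 ± 0.19 (SE, n = 2 per group, limma adjusted p = 0.031). The groups did not overlap on either TAP2 probe, but the fold change stayed below 2 on both. After median scaling the brighter TAP2 probe had a log2 fold change of 0.08 (limma adjusted p = 0.69). Read as the mean of its probes, TAP2 changed by 0.57 on the log2 scale (limma adjusted p = 0.047).

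PSMB9 encodes the inducible subunit that takes the place of PSMB6 in the proteasome. Its brighter probe had log2 signals of 6.64 and 6.75 in KO against 5.53 and 5.13 in WT, so that the log2 fold change was 1.37 ± 0.20 (SE, n = 2 per group, limma adjusted p = 0.0089). The second probe read 6.70 and 6.69 in KO against 5.42 and 4.97 in WT, so that the log2 fold change was 1.51 ± 0.21 (SE, n = 2 per group, limma adjusted p = 0.0077). Both probes rose, by 2.58-fold and 2.84-fold.

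PSMB8, the inducible counterpart of PSMB5, gave a different picture. Its brightest probe had log2 signals of 4.87 and 4.93 in KO against 4.33 and 4.74 in WT, and its log2 fold change of 0.36 ± 0.20 (SE, n = 2 per group, limma adjusted p = 0.21) was not called. The 3 probes behaved alike, with log2 fold changes of 0.35 to 0.40 and adjusted p values of 0.19 to 0.27. On each of them WT replicate 2 lay above WT replicate 1 and close below the KO arrays, the reverse of the order on the TAP1 and PSMB9 probes. The difference between KO and WT within slide 1 was 0.09 to 0.16 on the log2 scale and within slide 2 it was 0.59 to 0.64, so the PSMB8 value depended on the WT array it was set against.

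Within each slide KO exceeded WT on all 18 probes, which follows from the lack of overlap between the genotypes given above and is no separate result. For SLA-3 the within-slide differences on the log2 scale were 1.40 to 2.16 on slide 1 and 0.96 to 2.10 on slide 2. For TAP1 they were 1.85 to 1.88 and 0.99 to 1.25, and for PSMB9 they were 1.51 to 1.74 and 1.22 to 1.28. The WT arrays differed more than the KO arrays on 17 of the 18 probes, by up to 0.81 against at most 0.36.

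The calls rested on both KO arrays. Without KO replicate 1 the number of member probes called fell from 11 to 3, all of SLA-3, and without KO replicate 2 it was 4, of which 3 were SLA-3 probes and 1 was a TAP1 probe. The fold changes moved little in these fits: PSMB9 gave log2 fold changes of 1.42 and 1.5 without KO replicate 1 and of 1.31 and 1.51 without KO replicate 2, with limma adjusted p values of 0.054 to 0.070. In these fits the spread within a genotype comes from the WT pair alone, and over the whole array the calls fell from 10882 to 6424 and 6093. Without WT replicate 1 and without WT replicate 2, 12 and 9 member probes were called.

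**Figure D2:**
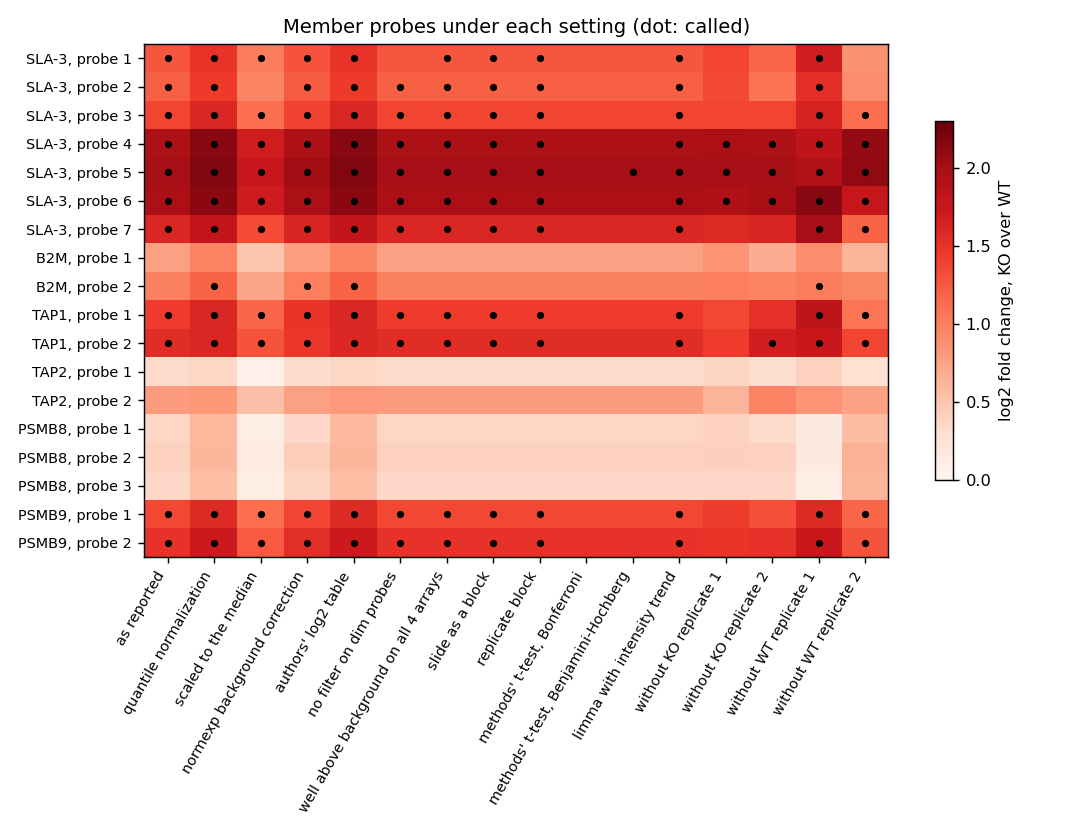
Log2 fold change of KO over WT (colour) for each member probe (rows, brightest probe of a gene first) under each way of processing or testing (columns), with a black dot where the probe was called. All values are above 0, and the dots of SLA-3, TAP1 and PSMB9 thin out under the methods' t-test and without either KO array.

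The scaling of the arrays sets the zero of these values. Scaling to the median in place of the 75th percentile moved the median log2 fold change of all tested probes from -0.06 to -0.32, and with it the share of called probes that were higher in KO from 61.7% to 47.8%. Of the 15 alternatives that were run, only quantile and median scaling, normexp background correction and the authors' log2 table could reverse a sign. The others kept the same fold change or left out 1 array of groups that did not overlap. All 18 member probes remained above 0 in the settings that could reverse a sign, and median scaling left 10 called.

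Differences between genes within an array carry no scaling factor, so the change in such a difference was compared between genotypes. PSMB9 minus PSMB6, the inducible subunit against the standard one whose place it takes, was 2.45 and 2.63 in KO against 0.93 and 0.36 in WT on the log2 scale. The KO arrays lay above the WT arrays by 1.90 on average, a 3.72-fold shift of the ratio. PSMB10 minus PSMB7, the other pair that could be formed, was 1.80 and 1.5 in KO against -0.17 and -0.44 in WT, a shift of 1.96 or 3.89-fold. PSMB5 had no named probe, so PSMB8 could not be set against its partner.

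With 2 arrays per genotype the exact two-sided permutation test has 6 arrangements and cannot go below p = 0.333, which both pairs gave. Neither pair alone can therefore pass a threshold in this design. Within slides the PSMB9 pair shifted by 2.09 and 1.70 and the PSMB10 pair by 2.25 and 1.67.

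The same comparison was made for pairs chosen after their values were seen. TAP1 minus TAP2 was 2.76 and 2.54 in KO against 1.87 and 1.25 in WT, a shift of 1.1 on the log2 scale. PSMB9 minus PSMB8 was 1.77 and 1.83 in KO against 1.20 and 0.39 in WT, a shift of 1.0 on the same scale. SLA-3 minus B2M, at their brightest probes, was -0.28 and -0.26 in KO against -0.51 and -1.04 in WT, a shift of 0.51. The genotypes did not overlap in any of the 3, and each gave the smallest exact permutation p the design allows, 0.333. These are descriptions of unequal change within the arrays, since the pairs were picked for it.

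**Figure D3:**
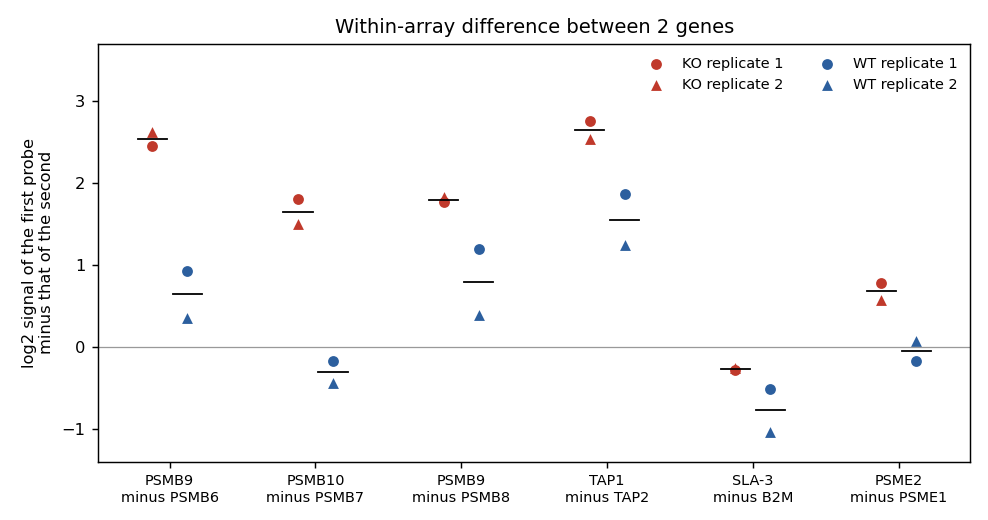
Difference between the log2 signals of the brightest probes of 2 genes on the same array (y axis) for 6 pairs (x axis), with KO in red, WT in blue, circles for replicate 1, triangles for replicate 2 and bars for the mean of each genotype. In the planned pairs, PSMB9 and PSMB10 against their standard partners, both KO arrays lie above both WT arrays, by about 2 log2 units on average. The KO arrays also lie above in the other pairs, which were chosen after their values were seen.

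Other genes of the pathway came from lists that were read at the brightest probe of each gene. Of 24 genes for further heavy chains, chaperones, peptidases and regulators of class I, 10 had a named probe. Of these 10, 2 were called higher, 0 lower and 8 were not called, beside 25.1% of all 2700 named genes called higher and 12.6% called lower. The median log2 fold change of the list was 0.66, beside -0.0036 over the named genes.

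The 2 that rose were SLA-5 and IRF1. How far the SLA-5 probes separate that gene from SLA-3 and other close copies was not tested, so the 2 heavy chain genes may not be separate results. SLA-5, a heavy chain gene next to the classical ones, had log2 signals of 7.18 and 7.26 in KO against 5.95 and 5.35 in WT, so that the log2 fold change was 1.56 ± 0.25 (SE, n = 2 per group, limma adjusted p = 0.011). Its call was lost without KO replicate 1 (adjusted p = 0.057) and without KO replicate 2 (adjusted p = 0.066). IRF1, an interferon-induced transcription factor that switches on class I and TAP1, read 4.50 and 4.48 in KO against 3.0 and 2.59 in WT, so that the log2 fold change was 1.70 ± 0.20 (SE, n = 2 per group, limma adjusted p = 0.0053). The IRF1 call was kept when each of the 4 arrays was left out in turn.

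The nonclassical heavy chains SLA-6, SLA-7 and SLA-8 were not called. SLA-8 read 4.93 and 4.92 in KO against 4.28 and 4.02 in WT, and its 4 probes gave log2 fold changes of 0.65 to 0.77 with limma adjusted p values of 0.022 to 0.029. SLA-6 had a log2 fold change of 0.21 (adjusted p = 0.31) and SLA-7, a dim probe, one of 0.08 (adjusted p = 0.79). Both turned below 0 after median scaling, at -0.05 and -0.18, and SLA-7 also did after quantile normalization (-0.27), after normexp (-0.11), without KO replicate 1 (-0.14) and without WT replicate 1 (-0.05). The test of the difference between these genes and SLA-3 was not run.

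Among the chaperones, CALR and CANX, the lectins that hold the newly made heavy chain, had log2 fold changes of 0.77 (adjusted p = 0.031) and 0.55 (adjusted p = 0.047). After median scaling these were 0.51 (limma adjusted p = 0.086) and 0.29 (limma adjusted p = 0.19). HSP90B1, a general chaperone of the endoplasmic reticulum, had a log2 fold change of 0.96 (adjusted p = 0.016). It passed 2-fold after quantile normalization, at 1.15, and was 0.70 after median scaling (limma adjusted p = 0.032). The peptidases LNPEP, which trims peptides in endosomes, and THOP1, which destroys peptides in the cytosol, had log2 fold changes of -0.57 (adjusted p = 0.041) and -0.79 (adjusted p = 0.016). The second THOP1 probe went the other way, at 0.65 (adjusted p = 0.071).

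**Figure D4:**
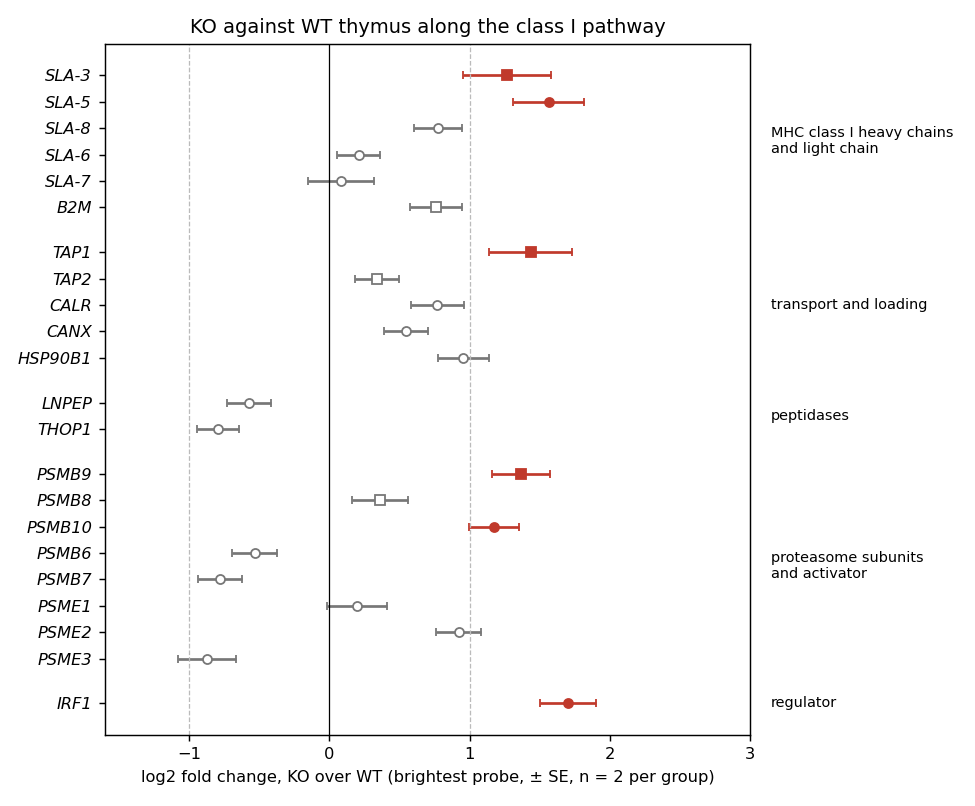
Log2 fold change of KO over WT (x axis, with SE, n = 2 per group) at the brightest probe of each class I pathway gene (y axis), with squares for members, circles for other genes, red filled symbols for genes called higher and open grey symbols for genes not called. SLA-3, SLA-5, TAP1, PSMB9, PSMB10 and IRF1 lie to the right of the dashed 2-fold line, and PSMB6, PSMB7, PSME3, LNPEP and THOP1 lie to the left of 0.

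In the catalytic core of the proteasome, the inducible PSMB9 and PSMB10 were called higher, while PSMB8 and the standard PSMB6 and PSMB7 were not called. PSMB10, the remaining inducible subunit, read 6.13 and 5.97 in KO against 5.0 and 4.75 in WT, so that the log2 fold change was 1.18 ± 0.18 (SE, n = 2 per group, limma adjusted p = 0.0091). It was called on all 3 of its probes, and its call was lost after median scaling (0.92), without KO replicate 1 (adjusted p = 0.081) and without KO replicate 2 (adjusted p = 0.064). The standard subunits PSMB6 and PSMB7 had log2 fold changes of -0.53 (adjusted p = 0.053) and -0.78 (adjusted p = 0.019). PSMB7 passed 2-fold after median scaling, at -1.04. After quantile normalization PSMB6 and PSMB7 were at -0.32 (limma adjusted p = 0.19) and -0.55 (limma adjusted p = 0.040).

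The activator caps of the proteasome also differed among themselves. PSME2, an interferon-induced part of the PA28 cap, read 5.83 and 5.76 in KO against 4.97 and 4.78 in WT, with a log2 fold change of 0.92 (adjusted p = 0.013). Its partner PSME1 read 5.05 and 5.19 in KO against 5.13 and 4.71 in WT, and its groups overlapped (log2 fold change 0.20, adjusted p = 0.49, turning to -0.06 after median scaling and -0.02 without WT replicate 2). PSME2 minus PSME1, also chosen after its values were seen, was 0.79 and 0.57 in KO against -0.17 and 0.08 in WT, a shift of 0.73 with the smallest exact permutation p the design allows, 0.333. PSME3, which forms a separate nuclear cap, had a log2 fold change of -0.87 (adjusted p = 0.028).

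Of the 30 genes for the proteasome's other core and cap subunits, 8 had a named probe, and 0 were called higher and 1 lower, a share close to the 12.6% of named genes called lower. All 8 values were below 0, between -1.07 and -0.08 in log2 units (median -0.23). The subunit called lower was PSMD4, a ubiquitin receptor of the cap, at -1.07 (adjusted p = 0.025), and its call was lost after quantile normalization (-0.96), without KO replicate 1 (adjusted p = 0.15), without KO replicate 2 (adjusted p = 0.074) and without WT replicate 2 (-0.87). PSMB3, a core subunit, had the next largest fall in value, at -0.54 (adjusted p = 0.062).

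Class I-like molecules, which share the fold of the heavy chain and mostly do not need TAP, went in both directions. CD1D and CD1E, CD1 family genes of cortical thymocytes, were called lower, with log2 fold changes of -4.40 ± 0.34 and -4.11 ± 0.49 (SE, n = 2 per group, limma adjusted p = 0.0025 and 0.0054). CD1D is also on the thymocyte list. FCGRT, the heavy chain of the neonatal Fc receptor and a partner of B2M, read 5.71 and 5.95 in KO against 5.03 and 4.99 in WT, with a log2 fold change of 0.82 (adjusted p = 0.020). PROCR, the protein C receptor, was not called at -1.0 (adjusted p = 0.16), and its KO arrays lay 1.39 apart. ULBP1, a ligand of the NK receptor KLRK1, was not well above background in WT and was at least 2.83-fold higher in KO (limma adjusted p = 0.0077), a call that normexp background correction removed (0.26). The second ULBP1 probe was not well above background on any array and was not tested.

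Of the 3 tested genes on the list of CD8A and other lymphocyte receptors, 2 were called higher and 1 lower, beside 25.1% and 12.6% of named genes. CD8A, the coreceptor of class I on T cells and thymocytes, fell by 2.50 on the log2 scale (adjusted p = 0.0070), from 4.65 and 5.52 in WT to 2.68 and 2.48 in KO. KLRK1, an activating receptor of NK and T cells that binds ULBP1, rose by 2.52 (adjusted p = 0.0061), from -0.77 and 0.07 in WT to 2.17 and 2.17 in KO. LAG3 rose by 2.38 (limma adjusted p = 0.0039), and NCR1 was too dim to be tested.

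The genes for TAP and the inducible subunits lie between class II genes, which allowed the change to be read in gene order. In the RefSeq table TAP2, PSMB8, TAP1 and PSMB9 follow each other in that order, with SLA-DOB on one side and BRD2, SLA-DMB, SLA-DMA and SLA-DOA on the other. This reading was chosen after the values were seen. TAP2 and PSMB8 were not called, TAP1 and PSMB9 were called higher on all their probes, and SLA-DOB, next to TAP2, was called higher on both of its probes (1.19 and 1.22 on the log2 scale). BRD2, a chromatin protein gene beyond PSMB9, had log2 fold changes of -1.34 to -0.42 on 3 probes, of which 1 was called lower. The 3 SLA-DM and SLA-DOA genes beyond it were called higher on all probes, at 1.77 to 2.10.

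In the class I cluster the called genes SLA-5 and SLA-3 were bordered by genes that hardly moved. TRIM26 had log2 fold changes of -0.04 and 0.18 and TRIM39 of -0.02 and 0.12, and none of these 4 probes was called (adjusted p of 0.51 to 0.94). Beyond SLA-8, SLA-7 and SLA-6, the RNA helicase gene DDX39B was called lower on all 4 of its probes, at -1.32 to -1.06. Neighbouring genes of this chromosome stretch thus had unequal changes.

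**Figure D5:**
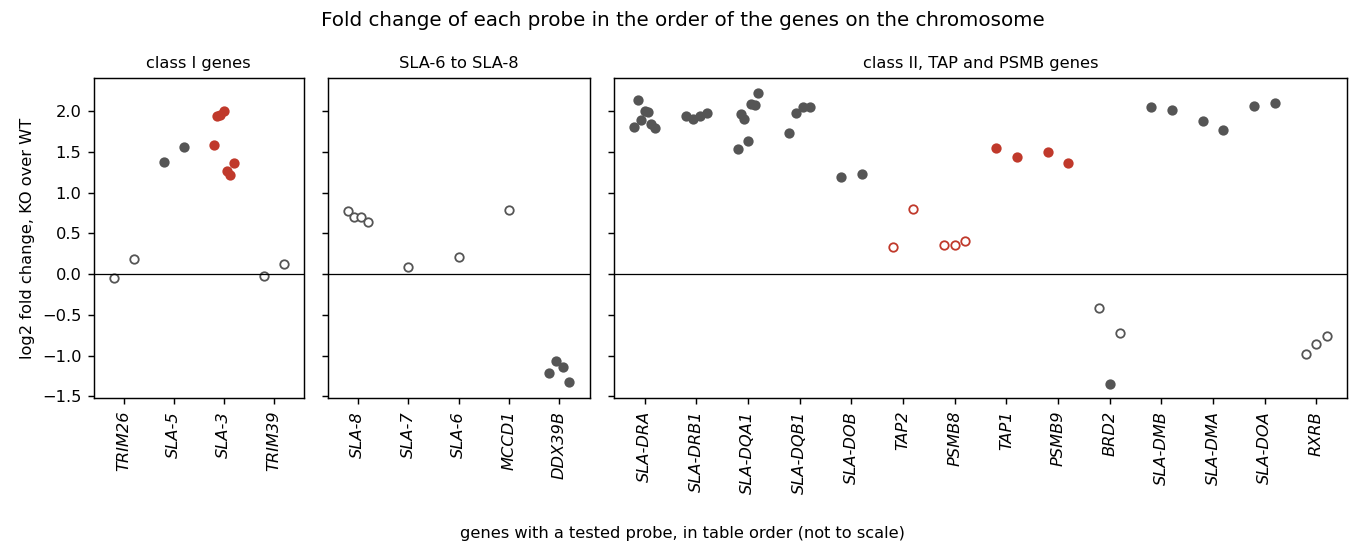
Log2 fold change of KO over WT (y axis) of each tested probe, with genes in the order of the RefSeq table along the x axis (not to scale), red for members, grey for other genes, filled where called and open where not. Values near 2 for most class II genes drop to between 0.34 and 0.79 for TAP2 and PSMB8, return to about 1.5 for TAP1 and PSMB9 and pass below 0 at BRD2, and in the left panel SLA-5 and SLA-3 stand above TRIM26 and TRIM39.

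Part of the interferon genes and markers of other cells were also called in KO thymus. Of 28 tested genes of interferon signalling and its targets, 16 were called higher, 0 lower and 12 were not called, beside 25.1% of named genes called higher and 12.6% called lower, and the median of their log2 fold changes was 1.39. IFNG, the gene of interferon gamma, read -1.50 and -1.43 in KO against -5.37 and -5.38 in WT, and its target CXCL9 read 5.30 and 5.44 in KO against 0.83 and -0.02 in WT. Log2 fold changes were 3.91 and 4.96 for these genes (limma adjusted p = 0.0021 for each). MX1 and USP18, interferon targets as well, were not called, at 0.22 (adjusted p = 0.59) and -0.11 (adjusted p = 0.76). All 10 tested class II genes were called higher against the same background of 25.1%, with a median of 1.85.

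The counts of cell markers stand beside the same 25.1% of named genes called higher and 12.6% called lower. Of 10 macrophage markers with a named probe, 10 were called higher, with a summed level of 251 to 317 times the 75th percentile of the array in KO and 55.1 to 69.1 in WT. All 3 endothelial markers and 3 of 4 fibroblast markers were called higher, with summed levels of 16.8 to 18.3 and 115 to 176 in KO and of 3.10 to 5.33 and 27.3 to 63.3 in WT. Of the 4 fat markers 3 were called higher, with summed levels of 38.6 to 112 in KO and 9.29 to 16.7 in WT. Of the 3 tested NK markers 2 were called higher (summed levels 10.3 to 10.6 in KO, 5.34 to 7.14 in WT). GZMB was not called at -0.76 (limma adjusted p = 0.11), and NCR1, too dim to be tested, was lower on both KO arrays than on both WT arrays. Of the 5 muscle markers 2 were called lower, the dim MYL1 and TNNT3. All 5 together summed to 22.2 to 24.1 in KO and 35.0 to 47.7 in WT. Most of that sum is the brightest ACTA1 probe, which was not called. Probes of the 3 muscle genes not called disagreed, at -0.26 to 1.43 for CKM, -5.58 to 0.87 for ACTA1 and -4.73 to 0.38 for MYH1. Of the 3 tested epithelial markers KRT8 alone was called higher, at 2.37 on the log2 scale, and EPCAM was not called at 0.37. The 12 thymocyte markers summed to 28.7 to 29.7 in KO and 171 to 242 in WT, and none of them was below background on both KO arrays. All 6 proliferation genes were called lower. The part of any of these cell types, or of interferon, in the class I values was not tested.

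The WT arrays also differed from each other on many of these genes. WT replicate 1 exceeded WT replicate 2 on 13 of the 18 member probes, with a median difference of 0.32 on the log2 scale, beside 49.8% of all tested probes and a median of -0.0026. It did so for 24 of 28 interferon genes (median 0.62), 10 of 10 class II genes (median 0.63), 9 of 10 macrophage markers (median 0.40), 4 of 4 fibroblast markers (median 0.97) and 4 of 4 fat markers (median 1.14), and for 0 of 12 thymocyte markers (median -0.40). The part of these in the spread of the WT class I values was not tested.

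Among 2508 named genes outside the members whose brightest probe was well above background on all 4 arrays, 5 had the profile nearest to the mean profile of the 6 member genes. The measure was the root mean square difference of the 4 centred log2 signals. They were TDRD10 (0.031), TRPV4 (0.035), CBLN4 (0.039), SMTN (0.039) and LIPA (0.044), with log2 fold changes of 0.88, 0.96, 0.94, 0.85 and 0.87. The mean member profile was 0.42 and 0.50 in KO against -0.30 and -0.62 in WT. SMTN is a smooth muscle protein, TRPV4 a cation channel and LIPA the lysosomal acid lipase. With 4 arrays this likeness describes only shared values.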

How the data were processed

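Thymus RNA of 2 KO and 2 WT samples was hybridised to single-colour Agilent arrays. The authors deposited intensity values from Agilent Feature Extraction 11.0.1.1 (background subtracted, not normalized between arrays) and a log2 table, which held 27974 probes and correlated with the log2 scanner signal at r of at least 0.9998 on each array, its quantile normalization being inferred from the values. Control and outlier spots were left out, log2 signals were scaled to the 75th percentile, spots of a probe were averaged (43597 probes) and probes were fitted with limma 3.58.1 in R 4.3.3. Tables and plots used Python 3.11.15, pandas 2.3.3 and matplotlib 3.10.9.

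Of 7111 probes with a RefSeq accession, 6686 were matched to 3020 named genes of the RefSeq table of Sscrofa11.1, which served for names and gene order only. A gene was read at its probe with the highest mean signal. A probe not well above background in 1 genotype is given as at least N-fold, against the higher of its own signal and the lowest signal of probes well above background on each array. Genes named are the members, list genes with a named probe (of proteasome core and cap genes those with the largest changes), IL2RG and the 5 genes of most similar profile. Neighbouring genes and 4 gene pairs were chosen after their values were seen, and the members and lists were chosen with earlier results of these data known. Of the marker lists, only that of B cells is not reported here. The fit was tested on simulated data. The number of arrays limits the precision. Alternatives were quantile and median scaling, normexp (offset 50, on median intensity), the deposited log2 table, 2 other filters, slide or replicate blocks, the methods' t-test with Bonferroni or Benjamini-Hochberg adjustment, a limma trend, the mean of all probes of a gene and leaving out each array.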

Additional observations from a re-analysis of the deposited data

How the results depend on the processing

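As reported, 10882 probes, 11 member probes, 3 member genes and 35 genes of the pathway lists were called. With normexp 6611 probes were called. The methods' t-test called 0 probes with Bonferroni (13771 had an unadjusted p under 0.05, among them 10 of the 18 member probes) and 1505 with Benjamini-Hochberg adjustment, and it called 0 and 1 member probes and 0 and 0 member genes under these adjustments. When each array was left out in turn, 6093 to 12713 probes, 3 to 12 member probes, 0 to 3 member genes and 19 to 42 list genes were called, with the lowest counts without a KO array. The PSMB9 and PSMB10 pairs then shifted by 1.61 to 2.18 and 1.80 to 2.11 on the log2 scale. The other settings kept the member probes called between 10 and 12. No member probe changed direction with quantile or median scaling, normexp or the deposited log2 table, the settings that could reverse a sign.

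The replicate block called 10668 probes, 11 member probes and 3 member genes, and the slide block 11124, 11 and 3. The deviations of arrays with the same replicate number correlated at -0.29, so the numbers were not taken to pair the samples. With 2 arrays per genotype the value for arrays of the same slide, 0.29, is the same number with its sign turned and no separate result. The crossed pairing is the slide block. Calls are limited by 2 arrays per genotype.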
